A study of Mus musculus with 19 samples.

Results

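A set of 10 genes that mark the cells of brain blood vessels was followed in the hippocampus of 5xFAD mice with and without a clusterin knock-in. Of these 10 genes, 6 mark endothelial cells (Cldn5, Pecam1, Flt1, Cdh5, Tek and Slco1a4) and 4 mark mural cells, mainly pericytes (Pdgfrb, Rgs5, Kcnj8 and Vtn). They were taken by name, by matching the Ensembl gene IDs of the count table to symbols. All 10 were found among the 20655 genes listed, and all 10 were among the 18204 genes with enough counts to be tested. The rule that lists them uses no measured value.

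Bulk RNA sequencing was done on the left hippocampus of 19 mice aged 4 months, with 1 library per animal. All animals carried the 5xFAD transgenes (genotype label 5xFADHEMI, read as hemizygous), in which the neuronal Thy1 promoter drives mutant human amyloid precursor protein and presenilin 1 and amyloid is deposited, so the controls of every comparison here are also 5xFAD animals. The knock-in animals carried in addition the allele labelled CLUh2kbKIHO, read as homozygous, whose sequence the labels do not give. The groups were 5xFAD females (n = 5, numbered 1 to 5), 5xFAD males (n = 5, numbered 6 to 10), knock-in females (n = 4, numbered 1, 2, 4 and 5) and knock-in males (n = 5, numbered 6 to 10). The series title names clusterin in relation to astrocytes, microglia and synapses, and mice without the 5xFAD transgenes were not analysed here. Animals had been perfused with saline before dissection. Knock-in animals have later animal numbers and earlier library numbers than all 5xFAD animals, so genotype and anything that goes with these numbers cannot be told apart.

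Endothelial cells line the capillaries of the brain and form the blood-brain barrier by sealing their contacts with tight junctions and by exporting or importing selected solutes. Pericytes sit on the outer wall of the same capillaries inside a shared basement membrane, and depend on platelet-derived growth factor from the endothelium, which they sense through Pdgfrb. Astrocyte endfeet cover both. In bulk tissue, fewer vessel cells and less RNA per vessel cell cannot be told apart.

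Libraries held 17278276 to 25200966 counts. Mouse Clu itself ran from 732 to 1365 CPM (counts scaled to the TMM-adjusted library size) over the 19 libraries, with overlapping groups and a log2 change of 0.13 with the knock-in (adjusted p = 0.665 by edgeR), and since the labels do not give the knocked-in sequence this level does not check them. All 10 listed neuronal markers of the hippocampus were tested, with a summed level of 675 to 1154 CPM over the 19 libraries. No other region was compared, so this level does not check the hippocampal origin, which rests on the labels. Libraries differed in other ways that go along with the groups. The mean log2 CPM of 8 long noncoding RNAs, most of them kept in the nucleus, lay at 6.16 to 7.08 in knock-in females and at 8.0 to 8.38 in 5xFAD females, without overlap. Among 5xFAD males the library of male 10 stood lowest at 6.41, and the other males of either genotype lay between 7.12 and 8.50. Summed choroid plexus markers ran from 242 to 16158 CPM, a 66.8-fold range. Other marker lists are given beside the results they move with.

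The control sequence just upstream of 7 of the 10 genes could be read from RefSeq promoter windows (GRCm38.p6). Shown here are the 250 bases before the start of the 4 genes that form the most closely correlated pairs described further on, Cldn5 with Vtn and Tek with Rgs5. Capitals mark the 6-base ETS-type motif CAGGAA or, on the opposite strand, TTCCTG. ETS factors such as Erg and Fli1 are regulators of endothelial genes. Cldn5 (chr16:18776597-18776846, plus strand), Vtn (chr11:78498870-78499119, plus strand), Tek (chr4:94739039-94739288, plus strand) and Rgs5 (chr1:169655251-169655500, plus strand) read, 5′ to 3′:
Cldn5: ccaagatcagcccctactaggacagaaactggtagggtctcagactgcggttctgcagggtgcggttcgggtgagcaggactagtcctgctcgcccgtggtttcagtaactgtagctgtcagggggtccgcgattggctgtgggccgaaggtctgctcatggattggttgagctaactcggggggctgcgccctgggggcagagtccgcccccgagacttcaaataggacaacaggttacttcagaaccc
Vtn: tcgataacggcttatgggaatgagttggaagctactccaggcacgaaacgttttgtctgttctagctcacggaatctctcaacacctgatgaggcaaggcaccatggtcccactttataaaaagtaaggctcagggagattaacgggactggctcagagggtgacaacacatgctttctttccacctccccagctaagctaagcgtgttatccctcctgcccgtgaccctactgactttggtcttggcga
Tek: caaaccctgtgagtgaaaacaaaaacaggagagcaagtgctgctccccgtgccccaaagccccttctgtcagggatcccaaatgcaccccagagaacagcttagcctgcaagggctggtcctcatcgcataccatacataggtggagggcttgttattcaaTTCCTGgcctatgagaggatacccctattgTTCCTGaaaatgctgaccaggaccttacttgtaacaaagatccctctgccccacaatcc
Rgs5: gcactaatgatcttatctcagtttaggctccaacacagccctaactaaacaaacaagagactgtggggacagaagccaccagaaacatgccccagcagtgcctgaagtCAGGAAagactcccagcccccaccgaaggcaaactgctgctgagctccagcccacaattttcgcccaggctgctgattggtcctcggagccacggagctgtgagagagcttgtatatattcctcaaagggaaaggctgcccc

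The motif CAGGAA, searched on both strands, occurred in the windows of 2 of the 7 genes, Tek with 2 copies and Rgs5 with 1. It occurred in 25.7% of all 32851 promoter windows of the same length. The related motif CCGGAA was found in 0 of the 7 windows and in 12% of all windows. The GATA-type motif AGATAA was found in the Rgs5 window, in 1 of 7 against 9.99% of all windows, and the GC-box motif GGGCGG in those of Flt1 and Cldn5, in 2 of 7 against 32.7%. The upstream windows of Cldn5 and Vtn held neither ETS-type motif. Their GC content was 59.6% and 50.4%, against 51.2% for Tek and 53.6% for Rgs5. These matches describe letters in a window and not sites in use.

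Levels of different genes are compared per kilobase of exon (CPM per kb). The length is the union of all exons annotated in GENCODE M21 (GRCm38), not that of the transcripts in use, and the order depends on it. Flt1 has 13.5 kb by this count and Vtn 2.03 kb, while by CPM alone they averaged 63.3 and 65.0. Vtn, the adhesion protein vitronectin, stood highest at 32.0 ± 7.78 CPM per kb (SD, n = 19), next to Cldn5 at 31.3 ± 5.83, the claudin that seals the endothelial tight junction. Rgs5, a regulator of G protein signalling and a classical pericyte marker, followed at 20.4 ± 3.28 CPM per kb. The ranges of these 3 overlapped, and the lowest library of Rgs5 still lay above the highest library of any of the other 7 genes. Slco1a4, an organic anion transporter of the barrier, came next at 6.65 ± 1.33 CPM per kb. Flt1 (4.69 ± 0.614), Pdgfrb (4.27 ± 0.458), Pecam1 (3.28 ± 0.516), Cdh5 (3.21 ± 0.425) and Tek (3.08 ± 0.495) came after it. Kcnj8, a pore subunit of ATP-sensitive potassium channels of pericytes, was lowest at 1.41 ± 0.290 CPM per kb and rested on only 47 to 114 counts per library. Each neighbouring pair in this order overlapped in range except Rgs5 and Slco1a4.

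**Figure D1:**
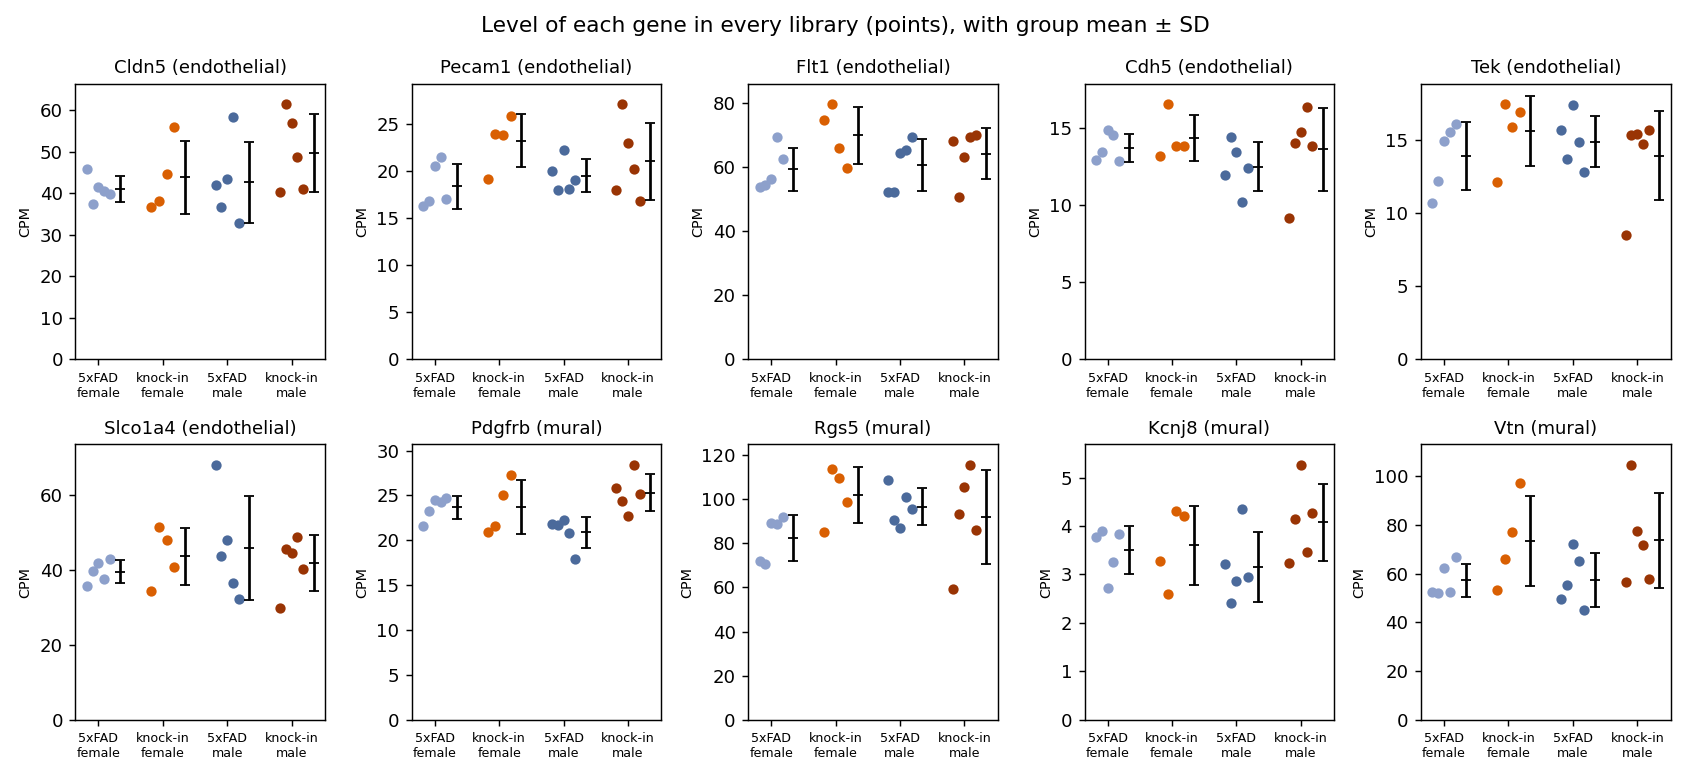
Level of each of the 10 genes in every library, in CPM (y axis, starting at 0), by group (x axis). Each point is 1 animal and the bar is the group mean with its SD. Pdgfrb in males is the panel where the points of the 2 genotypes do not overlap, with 5xFAD males at 17.9 to 22.2 CPM and knock-in males at 22.7 to 28.4 CPM.

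None of the 10 genes passed the test for the knock-in effect over both sexes. This count is 0 by edgeR's quasi-likelihood test with Benjamini-Hochberg adjustment, by DESeq2 and by limma-voom, and 2 of the 10, Vtn and Pecam1, had an unadjusted p under 0.05. Over all 18204 genes tested, 0.022% were called and 11.9% had an unadjusted p under 0.05. The sign was above 0 for 9 of the 10 genes, with a median log2 change of 0.15, while 49.6% of all tested genes were above 0 and their median was -0.0013. The 4 mural genes had a median of 0.18 and the 6 endothelial genes of 0.13. No gene separated the 2 genotypes without overlap, a pattern seen in 0.00549% of all genes. The values of every animal follow, in CPM and in the order of the animals' numbers in each group.

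Vtn carried the largest difference. In females it measured 52.5, 52.1, 62.4, 52.3 and 66.7 CPM in 5xFAD and 53.4, 66.03, 77.1 and 97.1 CPM in knock-in animals. In males it measured 49.6, 55.2, 71.96, 65.2 and 45.2 CPM in 5xFAD and 56.6, 105, 77.7, 71.9 and 57.7 CPM in knock-in animals. The groups overlapped in both sexes. The 2 highest values of the series belonged to knock-in male 7 and knock-in female 5, and 4 of 9 knock-in animals lay above every 5xFAD animal. Over both sexes the mean was 57.3 ± 8.68 CPM (SD, n = 10) in 5xFAD and 73.6 ± 17.9 CPM (SD, n = 9) in knock-in animals. The log2 change was 0.36 (SE 0.12, 95% interval 0.11 to 0.61), with an adjusted p of 0.286 by edgeR. An exact permutation test within sex over 31752 regroupings, 2-sided and not adjusted, gave p = 0.0206. The estimate was 0.36 in females (adjusted p = 0.251) and 0.36 in males (adjusted p = 0.751), and the difference between the sexes was 0.00 (adjusted p = 0.999). Without knock-in female 5 the Vtn estimate in females was 0.20, and without knock-in male 7 that in males was 0.20.

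Red cell transcripts moved with Vtn. Summed CPM of 5 erythrocyte genes ran from 100 to 159 in 5xFAD females, 192 to 355 in knock-in females, 131 to 232 in 5xFAD males and 142 to 253 in knock-in males. With the group means removed, Vtn correlated with the mean log2 CPM of these 5 genes over the 19 libraries. It had r = 0.775 (permutation p = 0.00068, adjusted over 60 relations 0.0204) and rho = 0.754 (permutation p = 0.00096, adjusted 0.0192). Vtn kept r = 0.761 without the 2 libraries farthest from the median. Cldn5 gave r = 0.702 (permutation p = 0.00451, adjusted 0.0902) and rho = 0.779 (p = 0.00078, adjusted 0.0192) with the same list, and r = 0.671 without the 2 farthest. The part of red cell content in the Vtn difference was not tested. With the noncoding RNA level as a covariate the Vtn change over both sexes was 0.33 (adjusted p = 0.944 by edgeR).

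Pecam1 encodes the adhesion molecule CD31 at endothelial contacts. Its levels in females were 16.3, 16.8, 20.5, 21.5 and 17.01 CPM in 5xFAD and 19.2, 23.97, 23.9 and 25.9 CPM in knock-in animals. Its levels in males were 20.01, 17.96, 22.3, 18.1 and 19.1 CPM in 5xFAD and 17.98, 27.1, 22.9, 20.3 and 16.9 CPM in knock-in animals. In females 3 of the 4 knock-in values lay above all 5 of the 5xFAD values, and in males the groups covered each other. The mean over both sexes was 18.95 ± 2.06 CPM (SD, n = 10) against 22.01 ± 3.59 CPM (SD, n = 9). This gave a log2 change of 0.22 (SE 0.10, 95% interval 0.02 to 0.42, adjusted p = 0.385 by edgeR) and an unadjusted exact permutation p of 0.0439. The change was 0.34 in females (adjusted p = 0.146) and 0.11 in males (adjusted p = 0.916), and the difference between the sexes, 0.23, did not pass the test either. Without knock-in male 7 the Pecam1 change in males was 0.0021. With the noncoding RNA level as a covariate the change over both sexes was 0.12 and that in females 0.11.

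Pdgfrb, the receptor through which pericytes are recruited and kept, had its larger difference in males. Males measured 21.8, 21.7, 22.2, 20.8 and 17.9 CPM in 5xFAD and 25.9, 24.3, 22.7, 28.4 and 25.2 CPM in knock-in animals, so that every knock-in male lay above every 5xFAD male. Females measured 21.6, 23.3, 24.5, 24.2 and 24.7 CPM in 5xFAD and 20.9, 21.6, 25.1 and 27.3 CPM in knock-in animals, and there the groups overlapped throughout. Pdgfrb was the 1 gene of the 10 whose male groups did not overlap, where 1.02% of all genes showed this in either direction and 0.527% with the knock-in higher. In females the number was 0 of 10, against 12.9% of all genes. The male means were 20.9 ± 1.73 and 25.3 ± 2.10 CPM (SD, n = 5 each), a log2 change of 0.28 (95% interval 0.07 to 0.48, adjusted p = 0.697 by edgeR). The female change was 0.00 (adjusted p = 0.988). The test of the difference between sexes gave -0.27 (unadjusted p = 0.0681, adjusted p = 0.324 by edgeR), so the male change is not shown to differ from the female one. Over both sexes the change was 0.15 (95% interval -0.01 to 0.31, adjusted p = 0.449 by edgeR) with an unadjusted exact permutation p of 0.0427. With the noncoding RNA level as a covariate the change was 0.25 over both sexes (adjusted p = 0.648 by edgeR) and 0.23 in females, where it had been 0.00.

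Rgs5 had estimates of opposite sign in the 2 sexes, as had Tek and Slco1a4 below. In females it stood at 71.8, 70.5, 89.1, 88.6 and 91.8 CPM in 5xFAD and 85.2, 114, 109.5 and 98.8 CPM in knock-in animals, and 3 of 4 knock-in values exceeded every 5xFAD value. In males it stood at 109, 90.6, 87.2, 101 and 95.6 CPM in 5xFAD and 59.4, 93.3, 106, 116 and 85.9 CPM in knock-in animals. Knock-in male 6 was the lowest library of the series for this gene and knock-in male 9 the highest. The log2 change was 0.31 in females (adjusted p = 0.217) and -0.07 in males (adjusted p = 0.953), and the difference between them was 0.38 (unadjusted p = 0.0718, adjusted p = 0.332 by edgeR). Without knock-in male 6 the male change turned to 0.05.

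Kcnj8, the least abundant of the 10, measured 3.78, 3.89, 2.73, 3.27 and 3.83 CPM in 5xFAD females and 3.28, 2.60, 4.32 and 4.21 CPM in knock-in females. Males measured 3.22, 2.41, 2.87, 4.35 and 2.94 CPM in 5xFAD and 3.24, 4.15, 5.26, 3.47 and 4.28 CPM in knock-in animals. The groups overlapped in each sex. The log2 change over both sexes was 0.22 with a wide interval of -0.10 to 0.53 (adjusted p = 0.609 by edgeR). It was 0.04 in females and 0.37 in males, with a difference of -0.33 (adjusted p = 0.617).

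Among endothelial genes, Flt1, a receptor for vascular endothelial growth factor that also acts as a decoy, was at 53.8, 54.6, 56.3, 69.6 and 62.6 CPM in 5xFAD females and 74.7, 79.8, 65.9 and 59.8 CPM in knock-in females. In males Flt1 was at 52.2, 52.1, 64.5, 65.3 and 69.6 CPM in 5xFAD and 68.1, 50.7, 63.1, 69.6 and 70.1 CPM in knock-in animals. The genotypes overlapped in both sexes, and the means over both sexes were 60.1 ± 7.01 CPM (SD, n = 10) and 66.9 ± 8.48 CPM (SD, n = 9). The log2 change was 0.16 (95% interval -0.02 to 0.33, adjusted p = 0.468 by edgeR).

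Cldn5 reached 45.9, 37.5, 41.5, 40.7 and 39.7 CPM in 5xFAD females and 36.7, 38.1, 44.7 and 55.9 CPM in knock-in females. Cldn5 in males was 42.1, 36.6, 43.4, 58.5 and 32.8 CPM in 5xFAD and 40.3, 61.6, 56.9, 48.9 and 41.1 CPM in knock-in animals. High values occurred in both genotypes, among them 5xFAD male 9 and knock-in male 7, and the groups overlapped. The log2 change was 0.16 (95% interval -0.06 to 0.39, adjusted p = 0.578 by edgeR).

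Cdh5, the cadherin of endothelial adherens junctions, was 12.9, 13.5, 14.8, 14.5 and 12.9 CPM in 5xFAD females and 13.2, 16.5, 13.8 and 13.8 CPM in knock-in females. Males had 11.97, 14.4, 13.5, 10.2 and 12.4 CPM in 5xFAD and 9.13, 14.01, 14.7, 16.3 and 13.9 CPM in knock-in animals. Knock-in male 6 was the lowest library of the series, and the groups overlapped, with a log2 change of 0.10 (95% interval -0.11 to 0.30, adjusted p = 0.744 by edgeR). The gene overlaps the antisense gene Gm29682 in GENCODE M21, and reads of the pair cannot be told apart without strand, so its level is uncertain.

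Tek, the angiopoietin receptor Tie2, measured 10.7, 12.2, 14.9, 15.6 and 16.1 CPM in 5xFAD females and 12.1, 17.4, 15.9 and 16.9 CPM in knock-in females. In males Tek measured 15.7, 13.7, 17.4, 14.8 and 12.8 CPM in 5xFAD and 8.51, 15.3, 15.4, 14.7 and 15.7 CPM in knock-in animals, the first of which, male 6, stood apart from the rest. The log2 change over both sexes was 0.03 (95% interval -0.22 to 0.27, adjusted p = 0.956 by edgeR). It was 0.17 in females and -0.10 in males, with a difference of 0.26 (adjusted p = 0.604 by edgeR). Without knock-in male 6 the male change was 0.04.

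Slco1a4 had 35.6, 39.7, 41.7, 37.6 and 43.01 CPM in 5xFAD females and 34.3, 51.4, 48.1 and 40.7 CPM in knock-in females. Its male values were 68.1, 43.8, 48.03, 36.6 and 32.3 CPM in 5xFAD and 29.8, 45.7, 44.6, 48.8 and 40.3 CPM in knock-in animals. It varied most among 5xFAD males, where male 6 at 68.1 CPM gave a coefficient of variation of 30.4%. The means were 42.7 ± 10.03 CPM (SD, n = 10) and 42.6 ± 7.09 CPM (SD, n = 9). The 95% interval of the log2 change, -0.25 to 0.25, was centred on 0 (adjusted p = 0.998 by edgeR). The Slco1a4 change was 0.14 in females and -0.13 in males, with a difference of 0.27 (adjusted p = 0.607 by edgeR). Slco1a4 has close relatives in the Slco1a family, between which the authors' counting could split reads.

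**Figure D2:**
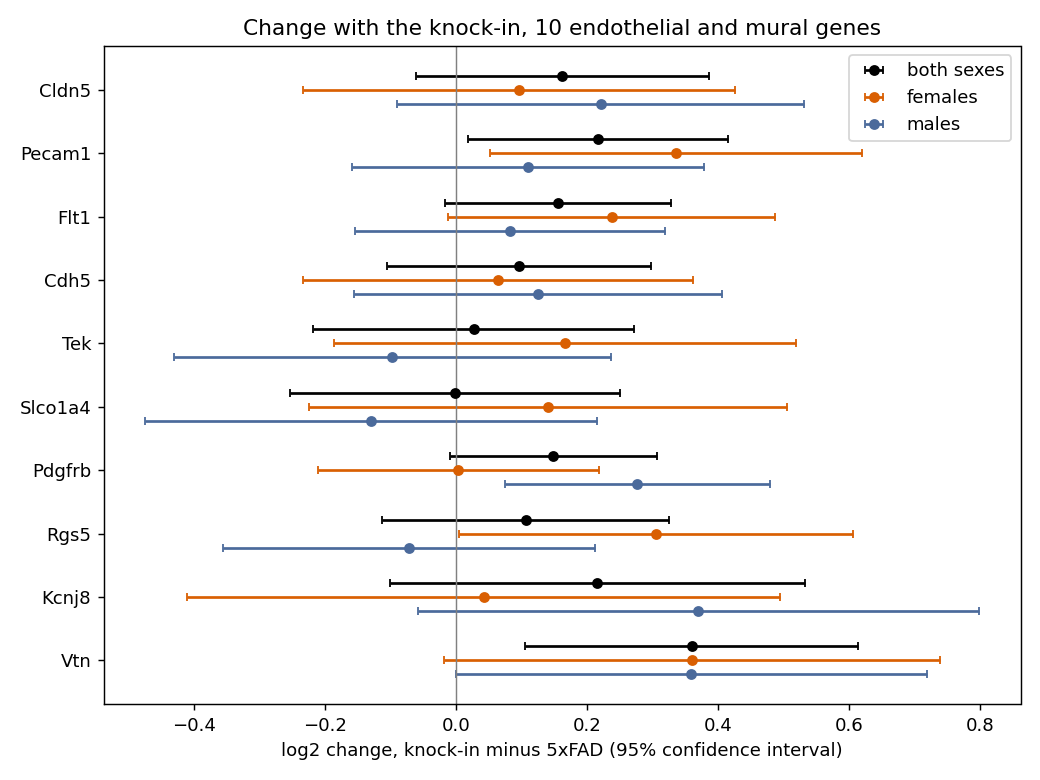
Log2 change with the knock-in for each of the 10 genes (y axis), over both sexes, in females and in males, with 95% intervals from edgeR (x axis, log2 scale). Most points lie to the right of 0, with Vtn at 0.36 over both sexes, and none passed the adjusted threshold of 0.05.

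Within females, 0 of the 10 genes were called by edgeR, against 5.56% of all genes, and 2 of the 10, Pecam1 and Rgs5, had an unadjusted p under 0.05 (all genes 22.1%). DESeq2 and limma-voom likewise called 0 of 10. All 10 changes were above 0, with a median of 0.15 (all genes 0.01, 51.1% above 0). Only 6 of 10 were above 0 when libraries were scaled by their total alone, where the median of all genes was -0.09. Within males, 0 of the 10 were called against 0% of all genes, and 2, Pdgfrb and Vtn, had an unadjusted p under 0.05 (all genes 6.52%). The male changes were above 0 for 7 of 10, with a median of 0.12 (all genes 0.01, 51.9%). No gene passed the test of the difference between the sexes, where 0.308% of all genes did. None of the 10 genes passed the test between females and males of the same genotype, with log2 differences (female minus male) of -0.23 (Rgs5) to 0.18 (Pdgfrb) in 5xFAD and -0.18 (Cldn5) to 0.16 (Tek) in knock-in animals. The background of called genes was 0.0385% and 0.0494% in these 2 comparisons. In the last 3 comparisons 0 of the 10 had an unadjusted p under 0.05, against 17.7%, 11.1% and 14.4% of all genes, and DESeq2 and limma-voom called 0.

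The 10 genes did not vary as 1 block among animals. With the group means removed, 33 of 45 pairs correlated above 0 over the 19 libraries, with a median r of 0.331 and a range of -0.459 to 0.787, and 5 pairs passed an adjusted permutation p of 0.05. These libraries share depth, scaling and tissue composition. Cldn5 and Vtn, an endothelial and a mural gene, gave r = 0.787 (permutation p = 0.00091, adjusted over 45 pairs 0.0383) and rho = 0.8 (p = 8e-04, adjusted 0.036), with r = 0.778 without the 2 libraries farthest from the median of Cldn5. Tek and Rgs5 gave r = 0.787 (permutation p = 0.0042, adjusted 0.0383) but rho = 0.498 (p = 0.0479, adjusted 0.24), and r = 0.562 without the 2 farthest libraries.

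The other 3 passing pairs were Pecam1 with Vtn, Tek with Slco1a4 and Slco1a4 with Rgs5. They had r of 0.702, 0.667 and 0.654, each with an adjusted permutation p of 0.0383. Their rho values were 0.628, 0.519 and 0.682 (adjusted permutation p 0.165, 0.204 and 0.0659), and their r without the 2 farthest libraries were 0.555, 0.56 and 0.539. By rank Cldn5 with Vtn was the pair that passed. Flt1 gave low values, with r = -0.438 to Cldn5 (adjusted permutation p = 0.318) and r = -0.00633 to Tek (adjusted 0.99). Its r of -0.459 with Vtn was the lowest of the 45.

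**Figure D3:**
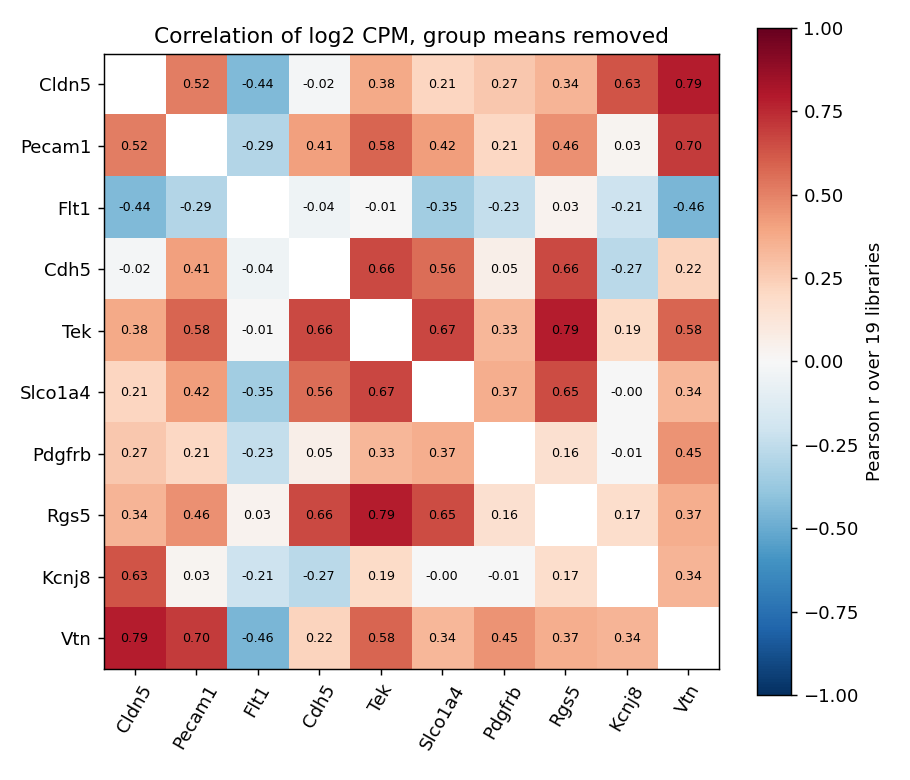
Pearson r between each pair of the 10 genes over 19 libraries, with group means removed (colour scale from -1 to 1, endothelial genes first, then mural genes). Most pairs are above 0, up to 0.787 for Cldn5 with Vtn and for Tek with Rgs5, and the Flt1 row holds the lowest value, -0.459.

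**Figure D4:**
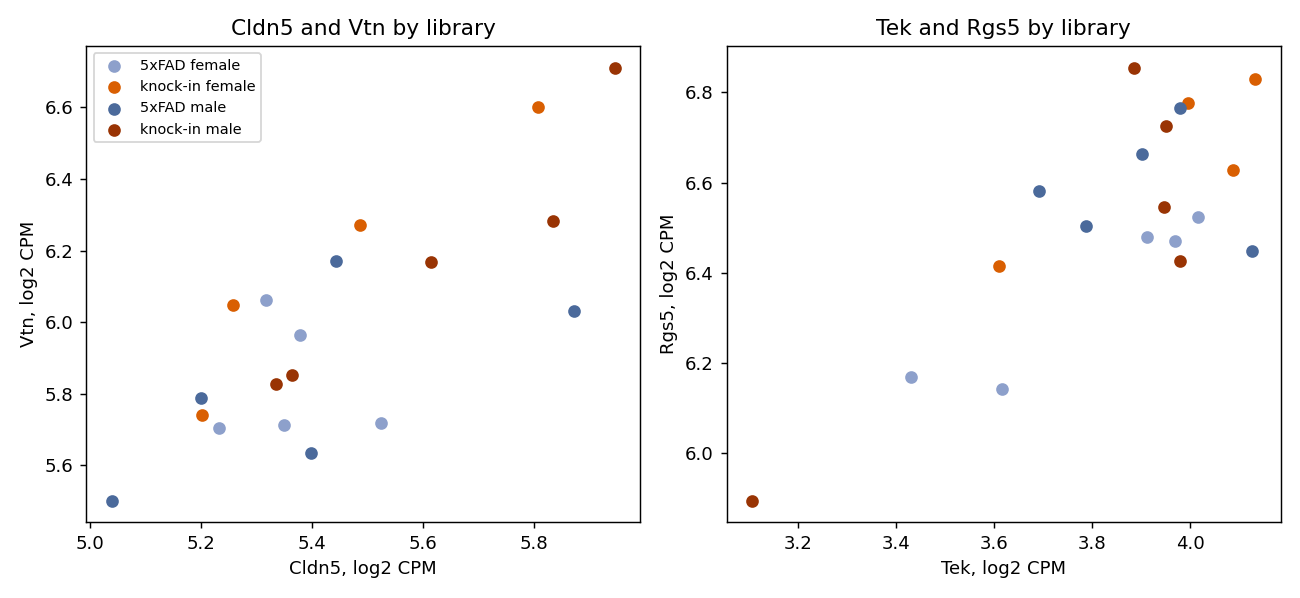
Log2 CPM of the most correlated pairs, Cldn5 against Vtn and Tek against Rgs5 (both axes in log2 CPM), 1 point per library, coloured by group. The first relation is not seen within the 5xFAD females. There female 1 has the highest Cldn5 of its group, 45.9 CPM, but Vtn at 52.5 CPM in a group range of 52.1 to 66.7 CPM. In the second panel the knock-in male 6 library lies alone at the low end, with Tek at 8.51 CPM and Rgs5 at 59.4 CPM.

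Smooth muscle markers moved with Pecam1. Summed CPM of 12 such genes ran from 184 to 194 in 5xFAD females, 174 to 242 in knock-in females, 182 to 263 in 5xFAD males and 181 to 325 in knock-in males. Pecam1 correlated with their mean level (r = 0.776, permutation p = 0.00045, adjusted over 60 relations 0.0204, and rho = 0.726, p = 0.00069, adjusted 0.0192), with r = 0.628 without the 2 farthest libraries. These were, with Vtn and the erythrocyte genes, the 2 of 60 relations that passed by r. The noncoding RNA level correlated most with Pdgfrb, at r = 0.537 (adjusted permutation p = 0.253).

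Across the whole table, the genes whose log2 CPM followed the mean standardized level of the 6 endothelial genes most closely included Cav2 (r = 0.875), Eng (0.873), the pseudogene Rpl10a-ps1 (0.836), Prom1 (0.825) and Anpep (0.825). Cav2 encodes a caveolin and Eng the transforming growth factor receptor endoglin. For the mean of the 4 mural genes they included Unc93b1 (0.911), Gm4841 (0.834), Grn (0.834), Tekt5 (0.816) and Cd14 (0.811). Cd14 is known from macrophages and microglia, and Grn from lysosomes. Against the endothelial mean, its own 6 genes had r of 0.179 (Flt1) to 0.867 (Tek), and the 4 mural genes 0.163 (Kcnj8) to 0.815 (Rgs5). These r values are over 19 libraries with the group means kept and describe these libraries only.

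Other genes of the vessel wall were counted from lists, some of which share a gene. Over both sexes edgeR called none of the genes in the lists of growth factor signalling, junctions, barrier transport, endothelial transcription, arterial, venous, activated endothelial, other endothelial, pericyte, smooth muscle and basement membrane genes. These 12 lists hold 141 different tested genes, of which 114 were above 0 and 36 had an unadjusted p under 0.05, beside 11.9% of all genes. DESeq2 called 2 of the 141, where it called 0.718% of all genes, and limma-voom 0. The lists of other endothelial genes (17 tested) had 15 above 0 and a median log2 change of 0.18, and other pericyte genes (15 tested) had 13 above 0 and a median of 0.21. Junction genes had 11 of 12 above 0 (median 0.21), signals between endothelium and mural cells 12 of 12 (median 0.12), and barrier transporters 11 of 15 (median 0.14). The lowest adjusted p of these lists belonged to F11r, a junctional adhesion molecule, at 0.57 (adjusted p = 0.0684), followed by Tgfbr2, a transforming growth factor receptor, at 0.40 (adjusted p = 0.156). Kdr, the main signalling receptor for vascular endothelial growth factor, was at 0.29 (adjusted p = 0.333), Abcb1a, the efflux pump P-glycoprotein, at 0.23 (adjusted p = 0.256), and Angpt2, a Tek ligand, at 0.61 (adjusted p = 0.402). Among venous and activated endothelial genes Icam1 was at 0.50 (adjusted p = 0.238) and Vcam1 at 0.41 (adjusted p = 0.252), both of them adhesion molecules for leukocytes. Among other pericyte genes the lowest p belonged to Slc6a20a at 0.49 (adjusted p = 0.337 by edgeR). Next was the peptidase Anpep at 0.50 (adjusted p = 0.377 by edgeR). Among smooth muscle genes the lowest p belonged to Des at 0.44 (adjusted p = 0.509 by edgeR). The smooth muscle actin Acta2 followed at 0.48 (adjusted p = 0.555 by edgeR). The collagen IV chain Col4a1 was at -0.27 (adjusted p = 0.412). In bulk tissue other cells can add to the counts of these listed genes, and their part was not tested. All 8 genes of a microglia list were also above 0 over both sexes (median 0.43). Of them edgeR called Cd68 at 0.73 (adjusted p = 0.0382) and Olfml3 at 0.62 (adjusted p = 0.0277), beside 0.022% of all genes. These 2 calls were lost in 17 and 13 of 29 alternatives.

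In females some of these genes were called, although none of the 10 markers was, where 1.13% of all genes were called higher and 4.43% lower. They are named here because they passed, having been chosen after their values were seen. Higher in knock-in females were 2 of 12 junction genes, F11r (log2 change 0.63, adjusted p = 0.025) and Jam2 (0.40, adjusted p = 0.0303), and 1 of 15 barrier transporters, the glucose transporter Slc2a1 (0.46, adjusted p = 0.0304). So were 2 of 7 venous genes, the haemostasis protein Vwf (0.72, adjusted p = 0.0332) and the leukocyte adhesion molecule Vcam1 (0.63, adjusted p = 0.0314), and 1 of 17 other endothelial genes, the receptor Adgrl4 (0.61, adjusted p = 0.0363). Of 10 genes of astrocyte endfeet, the water channel Aqp4 (0.54, adjusted p = 0.0403) and the connexin Gjb6 (0.46, adjusted p = 0.0425) were higher. Lower were 3 of 13 basement membrane genes, Agrn (-0.78, adjusted p = 0.00984), Col4a2 (-0.96, adjusted p = 0.018) and Col4a1 (-0.66, adjusted p = 0.0192), and 1 of 12 genes of the vascular endothelial growth factor and angiopoietin system, Vegfa (-0.40, adjusted p = 0.0425). The lists of mural cell signals, endothelial transcription, arterial, other pericyte and smooth muscle genes are grouped here because edgeR called none of their genes. The edgeR count of 0 of 63 is fixed by that choice, which can lower the other counts too. Of these 63, 10 had an unadjusted p under 0.05 (all genes 22.1%), while DESeq2 called 2 and limma-voom 1. Of all 141 vessel genes edgeR called 10, DESeq2 22 and limma-voom 12 in females, where DESeq2 called 9.4% and limma-voom 4.68% of all genes. Of the 5 erythrocyte genes 3 were higher, Hba-a1 (1.01, adjusted p = 0.0111), Hbb-bs (0.84, adjusted p = 0.0156) and Hbb-bt (1.09, adjusted p = 0.023). In males edgeR, DESeq2 and limma-voom called 0 of the 141 vessel genes, 26 of which had an unadjusted p under 0.05 (all genes 6.52%). All adjusted p are from edgeR.

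Col4a2, the partner chain of Col4a1, went from 59.1 ± 9.14 CPM (SD, n = 5) in 5xFAD females to 30.3 ± 5.68 CPM (SD, n = 4) in knock-in females. Agrn, the proteoglycan agrin, went from 213 ± 16.9 to 124 ± 9.77 CPM. In males Agrn was at 167 ± 18.8 and 185 ± 45.5 CPM (SD, n = 5 each), and the difference between its changes in the sexes was -0.93, at the threshold (adjusted p = 0.0499 by edgeR). This call was lost in 21 of 29 alternatives, DESeq2's size factors, limma-voom and the fit without a low-count filter among them, and in those 21 no gene at all was called for the difference between sexes. Slc2a1 went from 75.8 ± 8.71 to 104 ± 13.7 CPM in females, and Vwf from 14.3 ± 4.15 to 23.5 ± 3.61 CPM. The noncoding RNA level did not overlap between the female groups. With that level as a covariate edgeR called 0 genes in females. The log2 change then was -0.04 for Col4a2, -0.09 for Col4a1, -0.28 for Agrn, -0.10 for Vegfa and 0.18 for Vcam1. It was 0.23 for Slc2a1, 0.34 for F11r, 0.32 for Gjb6, 0.41 for Aqp4 and 0.35 for Jam2. For Adgrl4, Vwf and the erythrocyte gene Hba-a1 it was 0.67, 0.69 and 0.96, close to the values without the covariate. The part of the noncoding RNA level in these calls was not tested. Without the covariate edgeR called 0 genes in females also with knock-in female 2 or knock-in female 4 left out. The calls of the vessel and endfoot genes were lost in 4 (Agrn) to 19 (Vegfa) of 29 alternatives. The female count over all genes was 1013 in the main fit, 364 without 5xFAD female 1 and 439 without 5xFAD female 4. Leaving out any single library not named here gave 744 to 1334.

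**Figure D5:**
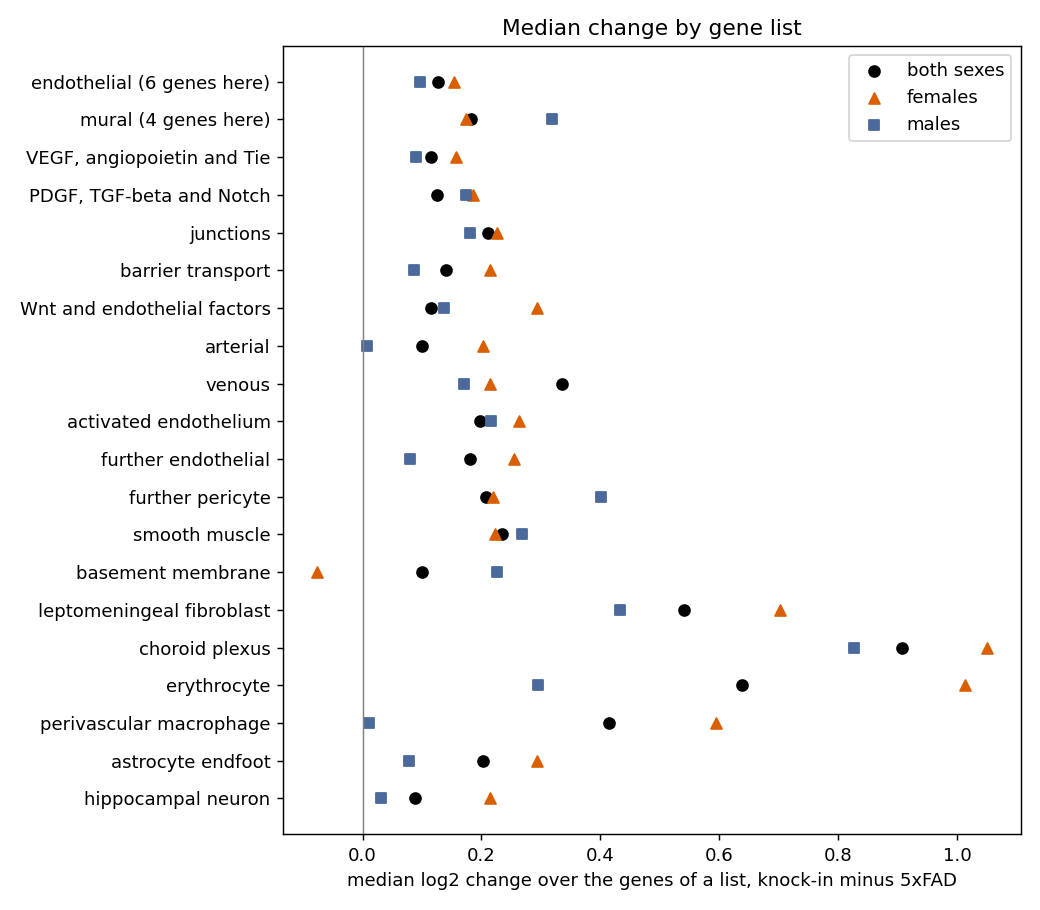
Median log2 change with the knock-in over the genes of each list shown (x axis, log2 scale), over both sexes, in females and in males, 1 row per list. The lists of 8 microglia genes (median 0.43 over both sexes) and 8 long noncoding RNAs (median -0.76) are not drawn. The 2 marker sets lie between 0.10 and 0.32, near the other vessel lists, the basement membrane list in females lies below 0 at -0.08, and the choroid plexus list lies highest in females at 1.05.

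Cells that border vessels or contaminate a dissection also varied. Leptomeningeal fibroblast markers (12 tested) summed to 176 to 533 CPM in 5xFAD females, 461 to 900 in knock-in females, 169 to 404 in 5xFAD males and 149 to 515 in knock-in males. Choroid plexus markers (12 tested) summed to 882 to 7300, 5155 to 16158, 258 to 4656 and 242 to 5034 CPM in the same order. The choroid plexus marker Slc4a5 was at 0 in at least 1 library. The part of both lists in the differences of the 10 genes was not tested. Of the perivascular macrophage list, Lyve1 and Ms4a7 were at 0 in at least 1 library, and its 6 tested genes summed to only 3.28 to 11.8 CPM.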

How the data were processed

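The authors deposited estimated counts per gene, as whole numbers, for 19 libraries, and a second table of normalized counts, a signal the authors scaled. The variance-stabilized table was not used. The tools named in the submitters' processing notes are Salmon, FastQC, Seurat and DESeq2, with the build mm39 and no versions or settings. Whether libraries keep the strand is not given in the sources used here. Symbols came from GENCODE M21 (GRCm38) for 20023 of 20655 gene IDs (96.9%). Since that build differs from mm39, the only coordinates given are those of RefSeq promoter windows.

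Samples were grouped by the genotype and sex in the labels. Tests used edgeR 4.0.16 (quasi-likelihood, TMM scaling, low-count filter with a minimum count of 10) in R 4.3.3, fitted to all 18204 genes that passed, with Benjamini-Hochberg adjustment over them and a threshold of 0.05. CPM are TMM-scaled, and log2 CPM use a prior count of 2. Alternatives used DESeq2 1.42.0 and limma 3.58.1, other scalings and filters, the authors' normalized counts with a pseudocount of 1, a noncoding RNA covariate and each library left out. Correlations used 100000 permutations, and the genotype difference of a single gene an exact permutation test. Scripts were tested on simulated data. All 36 pairs of libraries within groups differed by more than sampling noise. Depth of 17278276 to 25200966 counts per library gave the 10 genes 47 to 2416 counts per library. Each library is labelled as its own animal.

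The 10 genes were named throughout, with, for other lists, up to 3 genes with the lowest p over both sexes and the 6 genes most correlated with each marker set, some of which are not reported here. The genes and lists were chosen with earlier results of these data known.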

Additional observations from a re-analysis of the deposited data

Results flagged for a closer look

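Tek in knock-in male 6 stood at 8.51 CPM, while the other 4 knock-in males lay between 14.7 and 15.7 CPM. The gap to its nearest neighbour was 0.862 of the group's range, above the limit that an outlying value has to pass. It was the 1 such value among 40 sets of 1 gene in 1 group. Chance gives such a value in about 1 of 20 sets, so 1 among 40 is no more than chance gives. The same library was the lowest of its group for 7 of the 10 genes. Besides Tek these were Cdh5 at 9.13 CPM, Slco1a4 at 29.8 CPM, Rgs5 at 59.4 CPM, Cldn5 at 40.3 CPM, Vtn at 56.6 CPM and Kcnj8 at 3.24 CPM, while Flt1, Pdgfrb and Pecam1 had another knock-in male lowest.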

How the results depend on the processing

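None of the 10 genes was called in any of the 6 comparisons under the 28 or 29 alternatives run for each, and the lowest adjusted p by any of them was 0.0691 (females, without knock-in female 1). Of 1730 estimates under alternatives, 105 changed sign, and the cause of these changes was not tested. The following log2 values had turned. Over both sexes Tek was -0.016 with the authors' normalized counts and -0.016 with the noncoding covariate. Slco1a4 was 0.0066 by limma-voom and in the exact permutation, 0.013 with no low-count filter, 0.015 with the stricter filter, 0.011 with the authors' normalized counts, 0.016 with the replicate block and 0.039 without 5xFAD male 10 and knock-in male 6, an alternative chosen after seeing the data. Lamb2 was -0.067 with the authors' normalized counts. In females, scaling by library size alone gave -0.0033 for Cldn5, -0.037 for Cdh5, -0.097 for Pdgfrb and -0.059 for Kcnj8, and the replicate block gave -0.059 for Kcnj8. In males, Slco1a4 was 0.019 with the authors' normalized counts and Rgs5 was 0.058 without the same 2 males. For the difference between sexes the authors' normalized counts gave 0.071 for Cldn5, 0.16 for Cdh5 and -0.017 for Slco1a4, the noncoding covariate -0.0055 for Pecam1 and -0.12 for Vtn, limma-voom -0.0059 for Vtn and library size -0.13 for Vtn.

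Between the sexes of 5xFAD, library size alone gave 0.023 for Cldn5, 0.048 for Flt1 and 0.070 for Vtn, the noncoding covariate 0.0022 for Flt1 and 0.030 for Vtn, and the authors' normalized counts -0.011 for Cdh5 and 0.20 for Slco1a4. Flt1 was 0.025 without the 2 males, and Vtn 0.0052 by limma-voom and 7.77e-05 with the stricter filter. Between the sexes of knock-in animals, the noncoding covariate gave -0.016 for Pecam1 and 0.078 for Pdgfrb, and leaving out the 2 males -0.0024 for Cdh5 and -0.0048 for Slco1a4. Slco1a4 was -9.51e-05 by library size. Vtn was 0.014 by DESeq2, 0.013 with its size factors, 0.024 with no filter, 0.021 with the stricter filter and 0.085 with the authors' normalized counts.

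With each library left out in turn, these ranges crossed 0. Over both sexes Tek ran from -0.023 to 0.10 and Slco1a4 from -0.054 to 0.099. In females Cldn5 ran from -0.042 to 0.20, Cdh5 from -0.022 to 0.14, Pdgfrb from -0.072 to 0.089 and Kcnj8 from -0.044 to 0.16. In males Tek ran from -0.15 to 0.037, Slco1a4 from -0.23 to 0.058 and Rgs5 from -0.17 to 0.051. The difference between sexes ran from -0.18 to 0.037 for Cdh5 and -0.17 to 0.16 for Vtn. Between the sexes of 5xFAD Cldn5 ran from -0.13 to 0.088, Flt1 from -0.094 to 0.030, Tek from -0.16 to 0.0043 and Vtn from -0.073 to 0.097. Between those of knock-in animals Cdh5 ran from -0.038 to 0.18, Slco1a4 from -0.041 to 0.19 and Vtn from -0.15 to 0.15.

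Over all genes, the count called over both sexes was 4, against 108 by DESeq2, 213 without 5xFAD male 10 and knock-in male 6, and 127 without 5xFAD male 10 alone. Leaving out other single libraries gave 1 to 31. The count was 1 by library size or with the authors' normalized counts, 2 with the noncoding covariate and 0 with the replicate block. In females it was 1013, against 1828 by DESeq2, and its split of 206 higher and 807 lower became 43 and 1236 by library size. Same-numbered animals of the 2 genotypes did not vary together (9 pairs, r from -0.203 to 0.119, 1 best with its own number), so the replicate block, which called 0 of the 10 genes and 0 genes in females, pairs animals by number only. Depth limits Kcnj8 most, at 47 to 114 counts.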
